A study of Homo sapiens with 6 samples.

Results

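MYC, the genes that encode its dimer partner MAX and the other proteins that pair with MAX, and the related MLX pair were followed in LNCaP cells during exposure to an androgen. The genes were chosen by name: MYC, MAX, MXI1, MXD1, MXD3, MXD4, MNT, MLX, MLXIP and MGA. Of these 10, 9 were found among the 17990 genes of the table, and MGA is not analysed here. LNCaP is an established human prostate cancer line that carries the androgen receptor and responds to its ligands. All 6 libraries came from cells kept for 3 days in phenol red-free medium with charcoal-stripped serum, which is poor in hormones. The untreated library was taken at 0 h, and the others followed 3, 6, 12, 24 or 48 h of dihydrotestosterone (DHT), a natural androgen, at 10 nM. The series asks which transcripts androgen regulates over time.

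Each time was 1 library, so replicate error is unknown and nothing was tested across samples. The libraries held 13179917 to 20587956 counts over the listed transcripts. Levels are given as CPM, in which each count is scaled to the same total in each library, and 95% intervals cover counting error only. Changes are log2 of (CPM + 1) with DHT over (CPM + 1) at 0 h, and a gene is called higher or lower when it was at least 2-fold from 0 h on that scale, among the 11916 measured genes, whose mean count was 20 or more. A signed value given for a gene without a unit is a log2 change on this scale. All changes share the 0 h library, and untreated libraries of later times were not used here. Of the luminal prostate markers 8 of 8 were measured and summed to 8423 to 22043 CPM, while 5 fibroblast markers summed to 32.1 to 70.0, 5 leukocyte markers to 13.8 to 18.8, 3 endothelial markers to 5.54 to 24.4 and 3 basal markers to 0.332 to 0.895 CPM. Among the others COL3A1 (-1.62) and VWF (-1.31) were lower at 24 h, and their part in the results was not tested. The androgen-induced genes FKBP5, TMPRSS2, KLK2 and KLK3 were all higher at 24 h, with log2 changes of 5.25, 3.47, 1.57 and 1.08.

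MYC is a basic helix-loop-helix leucine zipper transcription factor that drives genes of cell growth, ribosome production and nucleotide synthesis. It binds DNA only as a dimer with MAX, at the E-box CACGTG. The MXD proteins (MXD1, MXI1, MXD3 and MXD4), MNT and MGA also need MAX; the MXD proteins and MNT recruit the SIN3 and histone deacetylase corepressor to the same sites. MLX is a MAX-like protein that pairs with MLXIP (MondoA), a sensor of glucose metabolites that acts on TXNIP and ARRDC4, and it can also pair with MXD1, MXD4 and MNT. In prostate cancer MYC is a well-known oncogene, and androgen is known to lower it in LNCaP cells. The data are transcript levels; proteins were not measured.

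The E-box is the site on which all these dimers meet, so it was looked for at the network's own start sites. The promoters, from 250 bases before to 50 after the annotated start, are RefSeq sequences on GRCh38.p14, and 9 of the 10 genes were matched by symbol, all but MYC. The letters CACGTG, which read the same on both strands, occurred in 3 of the 9, MXD4, MNT and MLX, and in 7.43% of all 27305 promoters of the table. The E-box begins 238 bases before the start in MXD4, 193 before it in MNT and 50 before it in MLX. The promoters of these 3 genes are shown with the E-box in capitals, and that of MXD1, the one member that rose past 2-fold, is shown beside them and holds no CACGTG.
MXD4, chr4:2262060-2262359, minus strand: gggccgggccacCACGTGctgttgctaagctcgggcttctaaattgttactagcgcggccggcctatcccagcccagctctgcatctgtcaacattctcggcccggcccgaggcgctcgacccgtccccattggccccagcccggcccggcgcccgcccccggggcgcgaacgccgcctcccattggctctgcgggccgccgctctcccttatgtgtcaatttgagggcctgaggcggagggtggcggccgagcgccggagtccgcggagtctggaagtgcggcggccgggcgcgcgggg
MNT, chr17:2401011-2401310, minus strand: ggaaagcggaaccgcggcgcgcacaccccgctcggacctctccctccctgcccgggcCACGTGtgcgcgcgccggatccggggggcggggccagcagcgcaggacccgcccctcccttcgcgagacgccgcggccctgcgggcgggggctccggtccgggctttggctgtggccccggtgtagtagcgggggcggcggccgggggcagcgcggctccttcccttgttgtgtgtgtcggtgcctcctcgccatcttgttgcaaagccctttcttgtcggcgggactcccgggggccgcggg
MLX, chr17:42566850-42567149, plus strand: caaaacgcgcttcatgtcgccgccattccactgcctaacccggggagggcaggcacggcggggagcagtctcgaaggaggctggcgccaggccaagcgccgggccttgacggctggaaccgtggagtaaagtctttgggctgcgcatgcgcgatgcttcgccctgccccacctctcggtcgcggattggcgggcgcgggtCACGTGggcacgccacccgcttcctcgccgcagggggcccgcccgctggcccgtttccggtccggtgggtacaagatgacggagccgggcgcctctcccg
MXD1, chr2:69914859-69915158, plus strand: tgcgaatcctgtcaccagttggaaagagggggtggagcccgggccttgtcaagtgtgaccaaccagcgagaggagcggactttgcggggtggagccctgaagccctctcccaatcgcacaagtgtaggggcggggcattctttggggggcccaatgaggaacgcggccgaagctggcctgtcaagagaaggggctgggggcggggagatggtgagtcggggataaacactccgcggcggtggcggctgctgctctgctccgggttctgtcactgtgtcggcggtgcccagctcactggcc

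MYC fell within 3 h and was lower at every later time. It stood at 398 CPM in untreated cells and at 163, 119.7, 120.4, 65.7 and 124 CPM after 3, 6, 12, 24 and 48 h, from counts of 5245, 2299, 1605, 1641, 1352 and 1872. All 5 DHT libraries lay well below the untreated one, and the 24 h library was the lowest. The level left was 40.9% of the untreated level at 3 h (ratio 0.409, interval 0.390 to 0.430) and 16.5% at 24 h (0.165, 0.155 to 0.175), a 6.06-fold difference. In bulk RNA, fewer cells with the transcript and less of it per cell cannot be told apart.

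The fall of MYC came in steps. From 3 to 6 h the level went to 0.735 times its value (0.689 to 0.783), while 6 and 12 h did not differ beyond counting error (ratio 1.01, 0.939 to 1.08). From 12 to 24 h it went to 0.545 times (0.507 to 0.586), and the 48 h level was 1.89 times that of 24 h (1.77 to 2.03). In the order of levels, 48, 12 and 6 h lay together, and each of the other neighbours in the order was separated by more than counting error.

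MYC was among the most reduced genes early on. Its log2 changes were -1.28, -1.73, -1.72, -2.58 and -1.67 in the order of time. At 3 h it was the 23rd lowest and at 6 h the 17th lowest of 11916 genes; at 24 h it was the 43rd and at 48 h the 142nd. At 12 h it was the 450th, or the 46th of the 11070 genes outside chromosome 4 and distal chromosome 15, whose genes were low in that library. Only 12 genes (0.101%) were at least 2-fold lower at all 5 times, and MYC was 1 of them. Genes 2-fold lower made up 0.864% at 3 h, 3.01% at 6 h, 7.99% at 12 h, 10.8% at 24 h and 7.33% at 48 h.

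**Figure D1:**
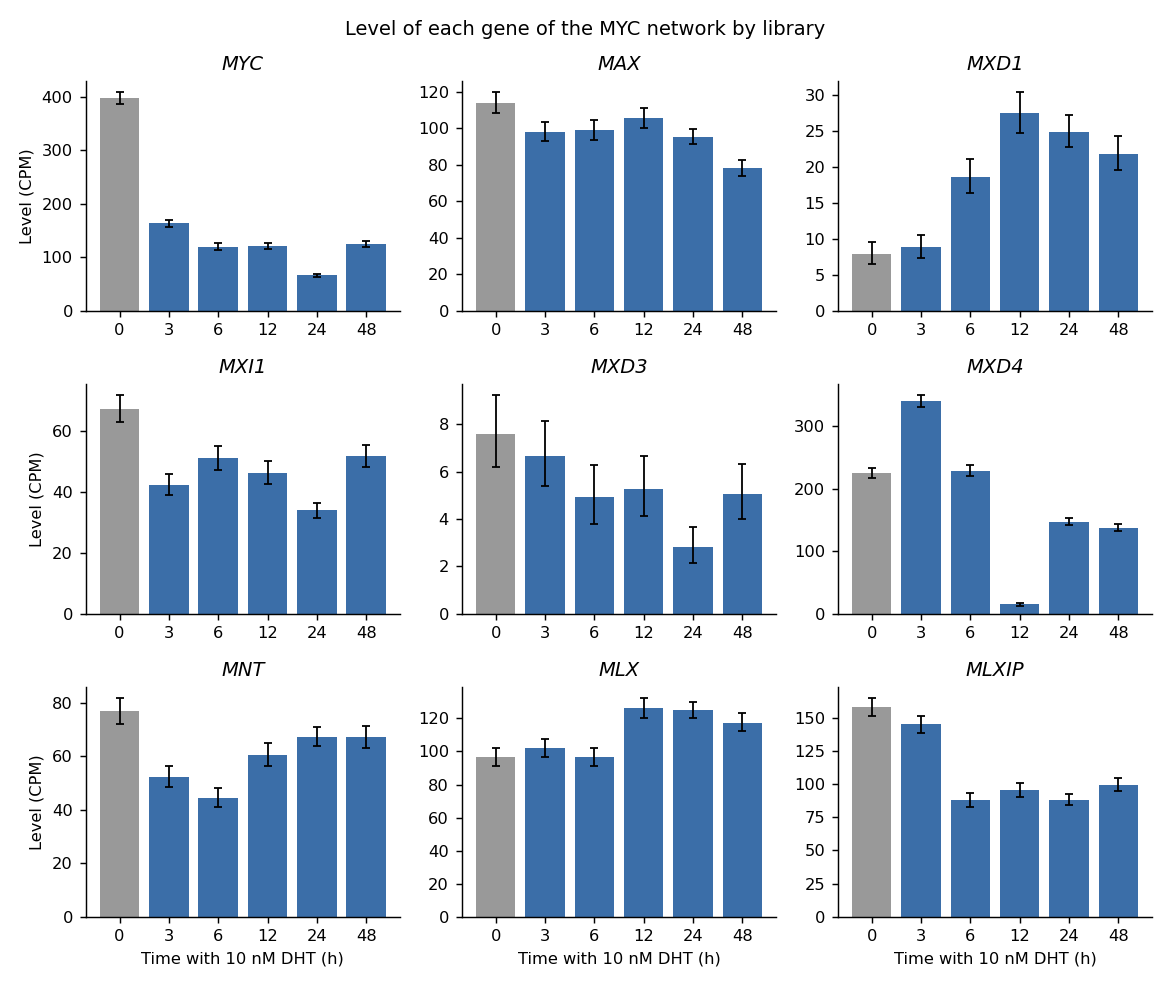
Level in CPM of the 9 measured genes of the MYC network in each of the 6 libraries (grey, untreated; blue, 10 nM DHT), with 95% Poisson intervals of counting error and times evenly spaced. MYC drops from 398 to 65.7 CPM at 24 h, MXD1 climbs from 7.89 to 27.4 CPM at 12 h, and MXD4 is at 14.7 CPM in the 12 h library alone.

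MAX, the partner that MYC, the MXD proteins and MNT share, moved little. It was at 114 CPM at 0 h and at 97.99, 99.03, 105.5, 95.4 and 78.3 CPM after 3 to 48 h. The untreated library was the highest and the 48 h library the lowest, and the 3, 6, 12 and 24 h libraries lay in between. In the order of levels, 12, 6, 3 and 24 h followed one another with no step between neighbours beyond counting error. The 24 h level was still below that of 12 h (ratio 0.904, 0.844 to 0.968). The largest difference from 0 h was at 48 h, a ratio of 0.686 (0.635 to 0.741) and a log2 change of -0.54, short of 2-fold. MAX encodes several protein isoforms, and which of them its counts cover is not known here.

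MXD1, a repressor partner of MAX linked to the exit from proliferation, rose between 3 and 6 h. Its levels were 7.89 CPM at 0 h and 8.79, 18.6, 27.4, 24.9 and 21.8 CPM after 3, 6, 12, 24 and 48 h, from 104 to 512 counts. The libraries at 0 and 3 h did not differ beyond counting error, and the 4 later ones all lay above both. The ratio to 0 h was 2.35 (1.86 to 2.99) at 6 h, 3.48 (2.79 to 4.36) at 12 h and 3.15 (2.55 to 3.93) at 24 h. From 12 to 24 h and from 24 to 48 h the steps were within counting error.

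MXD1 was the member that rose past 2-fold, at 6, 12, 24 and 48 h, with log2 changes of 1.14, 1.68, 1.54 and 1.36. Rises of this size were common, in 15.3, 11, 10.5 and 15% of measured genes, and 759 genes (6.37%) were at least 2-fold higher at all 4 of these times. Changes in these libraries moved with the GC content of the transcripts, and that of MXD1 is low, at 42.7%. With the GC trend removed its changes were 0.53, 1.17, 1.21 and 0.92, so that the calls at 12 and 24 h stood and those at 6 and 48 h did not.

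MXI1, another repressor partner of MAX, was below its untreated level in all 5 DHT libraries. It went from 67.1 CPM at 0 h to 42.2, 51.0, 46.2, 33.9 and 51.6 CPM. The untreated library was the highest and the 24 h library the lowest, with a step beyond counting error on either side of the 4 others. At 24 h the ratio was 0.504 (0.456 to 0.557) and the log2 change -0.97, just short of 2-fold, and with the GC trend removed it was -1.20. As for MYC, 24 h was the minimum, and the 48 h level was 1.53 times that of 24 h (1.38 to 1.69). Which isoforms of MXI1 the counts cover is likewise not known here.

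MXD3, a member of the family tied to dividing cells, had the lowest counts of the group. It was at 7.59 CPM at 0 h and at 6.66, 4.92, 5.28, 2.82 and 5.05 CPM later, from 58 to 100 counts. Only the 24 h library stood apart from its neighbour in the order of levels (1.75-fold below 6 h, 1.21 to 2.53). At 24 h the log2 change was -1.17, past 2-fold, and the ratio 0.371 (0.264 to 0.518). With the GC trend removed it was -0.45, and with a pseudocount of 5 it was -0.69, both short of 2-fold.

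MXD4 was the most abundant of the MXD genes per kb of transcript in every library but that of 12 h, and had its peak at 3 h. It was at 226 CPM at 0 h and 340.5 CPM at 3 h, a ratio of 1.51 (1.44 to 1.58), while MYC was falling. At 6 h it was back at 229 CPM, within counting error of 0 h, and it stood at 148 and 138 CPM at 24 and 48 h. With the GC trend removed the log2 changes at 3 and 6 h were 0.65 and 0.59 in place of 0.59 and 0.02. The return to the untreated level by 6 h was then not seen. The log2 change at 3 h, 0.59, was short of 2-fold. It was the 291st highest of 11916 genes there, at a time when 0.747% of genes were 2-fold higher. The later ratios were 0.654 (0.622 to 0.688) at 24 h and 0.610 (0.577 to 0.646) at 48 h, and with the GC trend removed the log2 changes were 0.03 and -0.21 in place of -0.61 and -0.71.

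At 12 h MXD4 was at 14.7 CPM, from 201 counts. MXD4 lies on chromosome 4, and genes of that chromosome were low as a whole in the 12 h library. MXD4 kept 7.83% of the mean of its 6 and 24 h levels there, beside a median of 10.4% over 389 genes of chromosome 4, 8.04% over 165 genes of distal chromosome 15 and 104.4% over 11070 genes elsewhere. The part of the whole chromosome's deficit in the MXD4 value was not tested, and results with MXD4 are given with and without it. No other member lies in these regions.

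MNT, a widely expressed antagonist of MYC, was lowest at the early times. It was at 76.8 CPM at 0 h, 52.4 and 44.4 CPM at 3 and 6 h and 60.5, 67.2 and 67.1 CPM at 12, 24 and 48 h. The 6 h library was the lowest, with a ratio to 0 h of 0.579 (0.522 to 0.641) and a log2 change of -0.78, short of 2-fold. The libraries at 24 and 48 h were equal within counting error and still below 0 h (0.875, 0.807 to 0.9504 at 24 h). With the GC trend removed the log2 changes at 3 and 6 h were -0.50 and -0.29 in place of -0.54 and -0.78. The lowest was then that of 3 h. The later values changed sign, to 0.06 at 12 h, 0.37 at 24 h and 0.29 at 48 h from -0.34, -0.19 and -0.19.

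The MLX pair split. MLX was at 96.7, 102, 96.6, 126, 125 and 117.5 CPM over the 6 times: the libraries at 0, 3 and 6 h lay together and those from 12 h on were higher, with a ratio of 1.30 (1.21 to 1.40) at 12 h. Its log2 changes at 12, 24 and 48 h, 0.38, 0.37 and 0.28, were short of 2-fold. MLXIP, its partner, was at 158, 145, 87.9, 95.7, 88.4 and 99.5 CPM. The first 2 libraries were high and the last 4 low, with a ratio of 0.557 (0.518 to 0.599) at 6 h and log2 changes of -0.84, -0.72, -0.83 and -0.66 from 6 h on, again short of 2-fold. With the GC trend removed those of MLXIP were -0.48, -0.42, -0.37 and -0.22.

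Over the 9 genes, 1 was past 2-fold at 3 h, 2 at 6 h, 3 at 12 h, 3 at 24 h and 2 at 48 h. Of all measured genes 1.61% were past 2-fold at 3 h, 18.3% at 6 h, 21.3% at 24 h and 22.4% at 48 h, and at 12 h 11% were higher and 7.99% lower. MYC was lower at each, MXD1 higher from 6 h, MXD3 lower at 24 h and MXD4 lower at 12 h, the last with its chromosome. The 1 gene called at 3 h was MYC, and from 6 h on the counts were not far from what these shares give for 9 genes.

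**Figure D2:**
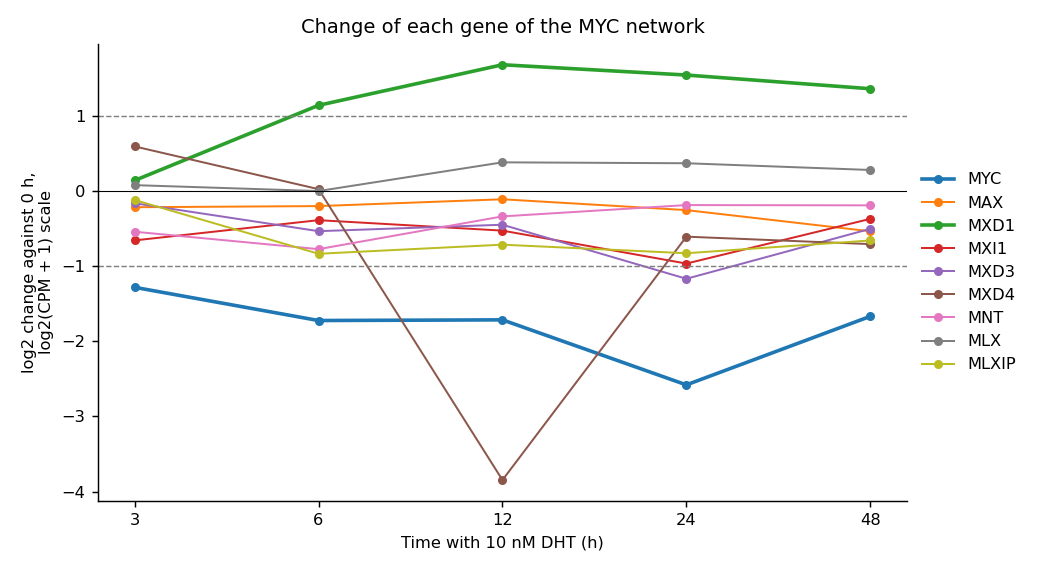
Log2 change against the 0 h library for the 9 measured genes at 3, 6, 12, 24 and 48 h with DHT, on the log2(CPM + 1) scale with times evenly spaced and dashed lines at 2-fold. MYC lies below the lower line at every time and MXD1 above the upper line from 6 h on, while MXD4 leaves the band only at 12 h, with -3.85.

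Levels of different genes were compared per kb of transcript, with the length of the GENCODE transcript tied to each row, 2366 bases for MYC and 1973 for MAX. In untreated cells MYC was the most abundant member, at 168 CPM per kb, ahead of MAX at 57.8, MXD4 at 55.6 and MLX at 41.4. MXI1 had 19.4, MLXIP 18.7, MNT 15.4, MXD3 5.12 and MXD1 1.41 CPM per kb. The order had changed by 3 h, when MXD4 led with 83.9 CPM per kb and MYC had 68.8. At 6 h MXD4 had 56.5 and MYC 50.6, and at 12 h MLX (54.0) and MAX (53.5) were ahead of MYC (50.9). At 24 h MLX led with 53.6 CPM per kb, ahead of MAX at 48.4 and MXD4 at 36.4, and MYC was the fourth at 27.8. At 48 h MYC was again first, at 52.6 CPM per kb, but by a small margin over MLX at 50.3. MAX had 39.7 and MXD4 33.95. MYC was at 2.91 times the level of MAX at 0 h, 0.574 times at 24 h and 1.33 times at 48 h.

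The balance of transcripts for MAX partners changed over time. The summed level of MXD1, MXI1, MXD3, MXD4 and MNT was 96.9 CPM per kb at 0 h and 113, 86.8, 37.5, 65.9 and 69.6 at the later times. MYC made up 63.5% of MYC and these 5 genes at 0 h, 37.9% at 3 h, 36.8% at 6 h, 57.6% at 12 h, 29.6% at 24 h and 43.05% at 48 h. Without MXD4 its share was 80.3, 70.6, 62.6, 60.0, 48.4 and 59.6%. With either sum the share was highest in untreated cells and lowest at 24 h, and the high share at 12 h appeared only in the sum that holds MXD4. Sums and shares were not computed with the GC trend removed. The log2 changes at 24 h were then 0.03 for MXD4, 0.37 for MNT and -0.45 for MXD3, in place of -0.61, -0.19 and -1.17. Those of MXI1, MXD1 and MYC were -1.20, 1.21 and -2.27 in place of -0.97, 1.54 and -2.58.

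Within the repressor genes MXD4 was the main transcript, with 57.4% of the sum at 0 h and 74.5% at 3 h but 9.69% at 12 h, and the part of MXD1 went from 1.46% at 0 h to 6.75% at 24 h. MXD1 remained the least abundant of the 5 at 0 and 3 h and was still below MXD4, MNT and MXI1 at 24 h. Per kb of transcript MLX was 2.21 times as abundant as MLXIP at 0 h and 5.11 times at 24 h. In CPM without length these ratios were 0.613 and 1.42. MYCL1 (now MYCL), a close relative of MYC, was at 28.1, 28.1, 27.7, 25.5, 24.9 and 27.6 CPM, with every ratio to 0 h within counting error of 1. With the GC trend removed its log2 changes were 0.06, 0.54, 0.31, 0.47 and 0.47. The excess of MYC over MYCL1 per kb, without that removal, went from 10.1-fold at 0 h to 1.88-fold at 24 h. MYCN, the third relative, had 0 or 1 count in each library.

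**Figure D3:**
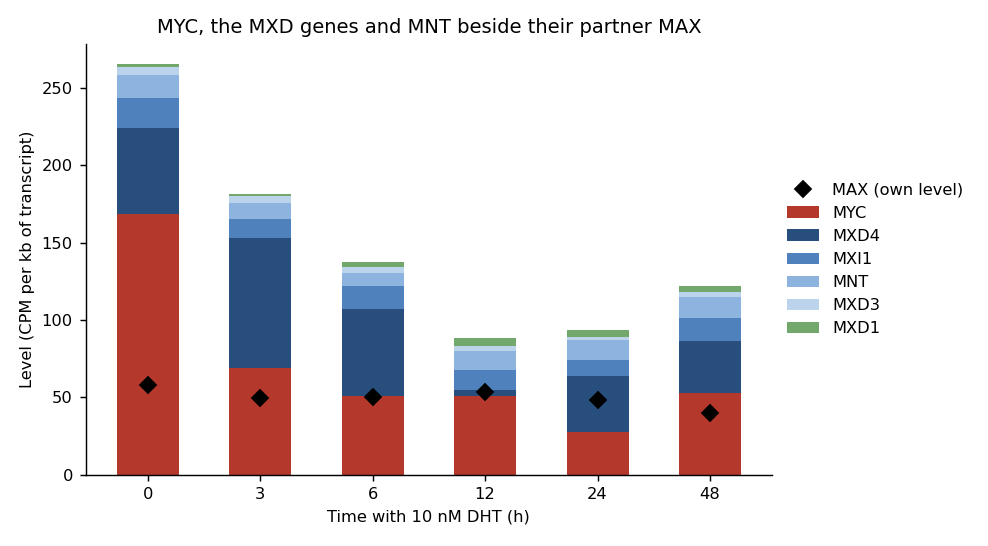
Stacked levels of MYC (red) and of the repressor partners MXD4, MXI1, MNT, MXD3 (blues) and MXD1 (green) in CPM per kb of transcript for each library, with the level of their common partner MAX as a diamond; times are evenly spaced. The red part shrinks from 168 to 27.8 CPM per kb at 24 h while MAX stays between 39.7 and 57.8, and the MXD4 part is nearly missing at 12 h.

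Genes that MYC is known to activate were then counted, on lists chosen with earlier results of these data known. Of 19 measured genes of ribosome biogenesis, 2 were lower and 0 higher at 24 h, and 5 were lower and 2 higher at 48 h. The median log2 changes were -0.59 and -0.67, beside -0.09 and -0.06 over all 11916 genes, of which 10.8 and 7.33% were 2-fold lower. FBL, the methyltransferase fibrillarin, had 416 CPM in untreated cells, 195 CPM at 24 h and 145 CPM at 48 h, with a ratio to 0 h of 0.348 (0.331 to 0.366) at 48 h. BOP1, a factor of large subunit assembly, had -1.23 and -1.01 at 24 and 48 h, and NOL5A (now NOP56) and PES1 were lower at 48 h with -1.09 and -1.08, as was UBTF, at 114 CPM from 229.8 CPM. PPAN had -0.77 at 24 h.

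The median of this list fell later than MYC. At 3 h, when MYC was already down, it was -0.01 with 0 genes called. At 6 and 12 h it was -0.31 and -0.20 with 0 genes lower and 1 higher, the assembly factor NOP5/NOP58 (now NOP58). Over all genes the medians at 3, 6 and 12 h were -0.08, 0.08 and 0.03. Of all genes 0.747, 15.3 and 11% were higher and 0.864, 3.01 and 7.99% lower. At 3 h so few genes were called that a count of 0 among 19 says little. At 48 h NOP58 and GNL3 (nucleostemin) were higher, GNL3 with 221 CPM from 105 CPM. With the GC trend removed, the medians were -0.27 and -0.49 at 24 and 48 h, and 0 genes were higher at any time. Lower genes were then 0 at 24 h and 2 at 48 h, FBL with -1.07 and WDR12 with -1.01. Short of 2-fold at 48 h were BOP1 (-0.50), NOP56 (-0.68), PES1 (-0.63), UBTF (-0.63), NOP58 (0.40) and GNL3 (0.72).

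Nucleotide synthesis genes showed 2 of 15 lower at 24 h and 3 at 48 h, with 0 higher at both times and medians of -0.29 and -0.30, beside 10.8 and 7.33% lower over all genes. IMPDH2, the rate-limiting enzyme of guanine nucleotide synthesis, had its fall late, with 703, 733, 509, 381, 227 and 153 CPM over the 6 times, to a ratio of 0.217 (0.207 to 0.227) at 48 h. ATIC, which completes purine synthesis, went from 316 to 139 and 122 CPM at 24 and 48 h. CAD, which starts pyrimidine synthesis, had -0.71 and -1.03 at these times, and TYMS had -0.67 at 24 h. After removal of the GC trend IMPDH2 (-1.38 and -1.90) and ATIC (-1.04 and -1.18) were still lower, CAD (-0.58 at 48 h) was not, and IMPDH1, the relative of IMPDH2, was higher with 1.06 and 1.01 in place of 0.46 and 0.52.

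Other genes known as activated by MYC went both ways. Of 14 measured, 2 were higher and 1 lower at 24 h, with a median of -0.01, and 3 were higher and 1 lower at 48 h, with a median of -0.12. Over all genes 10.5% were higher and 10.8% lower at 24 h, and 15 and 7.33% at 48 h. The higher genes at 48 h were ODC1, TFRC and EIF4E (1.30), and the lower one was EIF4A1 (-1.09). With the GC trend removed 1 was higher and 0 lower at 24 h, and 2 higher and 0 lower at 48 h. EIF4E then had 0.36 and EIF4A1 -0.92 at 48 h. ODC1, the first enzyme of polyamine synthesis and a classic MYC target, rose from 521 to 859, 1134, 3188, 4585 and 2751 CPM while MYC was low. TFRC, the transferrin receptor, rose 2.32-fold (2.20 to 2.45) by 24 h, a log2 change of 1.21 that was 0.88 with the GC trend removed. TERT, the telomerase subunit, went from 3.79 to 0.729 CPM at 24 h, 50 against 15 counts (log2 change -1.47, -0.79 with the GC trend removed), and CDK4 had -0.79.

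The E-box was common at the starts of these target genes. Of 43 genes on the 3 lists of activated genes with a promoter in the RefSeq table, 17 (39.5%) held CACGTG, beside 7.43% of all promoters. The genes were listed as known MYC targets, and MYC binds at this site, so the share describes the lists only. Of 15 measured genes with the E-box 0 were higher and 3 lower at 24 h (median -0.59), and 1 higher and 3 lower at 48 h (median -0.65). Of 26 without it 2 were higher and 0 lower at 24 h (median -0.36), and 3 higher and 4 lower at 48 h (median -0.40). Listed genes with no promoter there are in neither group. Among them were IMPDH2 (-1.63 and -2.20) and BOP1 (-1.23 and -1.01), lower at 24 and 48 h, and NOP58, higher at 48 h (1.03). Over all genes 10.8 and 7.33% were lower at these times. Once the GC trend was removed, 1 and 2 of the 15 were lower, and 0 and 1 of the 26, with medians of -0.20 and -0.39 for the 15 and -0.26 and -0.32 for the 26. The sites are shown, with 12 bases on either side, for the genes with an E-box that were 2-fold lower at 24 or 48 h and above 100 CPM at 0 h. Not shown are those of TERT, lower at 24 h from 3.79 CPM, and of EIF4E, the 1 higher gene of the 15. EIF4E had 1.30 at 48 h (0.36 with the GC trend removed), and its 2 E-boxes begin 225 and 72 bases before the start. With the GC trend removed FBL (-1.07) and ATIC (-1.18) stayed past 2-fold at 48 h, and PES1 (-0.63) did not. The E-box begins at base 7 of the transcript in FBL and base 14 in PES1, and in ATIC 46 bases before the start and at base 30.
FBL, chr19:39846356-39846385, minus strand: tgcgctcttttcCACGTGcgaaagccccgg
PES1, chr22:30591880-30591909, minus strand: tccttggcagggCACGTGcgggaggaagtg
ATIC, chr2:215312001-215312030, plus strand: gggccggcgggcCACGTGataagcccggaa
ATIC, chr2:215312076-215312105, plus strand: ctcctacctgcgCACGTGgtgccgccgctg

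Genes that MYC is known to repress also went both ways. Of 11 measured, 2 were higher and 3 lower at 24 h (median -0.60), and 2 higher and 0 lower at 48 h (median -0.16), beside 10.5% higher and 10.8% lower over all genes at 24 h and 15 and 7.33% at 48 h. After removal of the GC trend 2 were higher and 1 lower at 24 h (median -0.25) and 3 higher and 0 lower at 48 h (median 0.27). CEBPD then had 1.39 and 1.09 in place of 0.59 and 0.55, and CDKN2B had 0.999 in place of 1.17 at 24 h. NDRG1, a stress and differentiation gene, was at 544, 339.8, 616, 1607, 2469.8 and 2025 CPM, below 0 h at 3 h, when MYC had already fallen, and 4.54-fold above it (4.43 to 4.66) at 24 h. CDKN2B, which encodes the cell cycle inhibitor p15, went from 1.06 to 3.64 and 6.25 CPM at 24 and 48 h, a ratio of 5.88 (3.34 to 11.2) at 48 h. CLU, GADD45A and CEBPA had -1.43, -1.19 and -1.04 at 24 h, of which only CLU (-1.21) stayed past 2-fold with the GC trend removed. CDKN1A, which encodes p21, had 0.13.

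**Figure D4:**
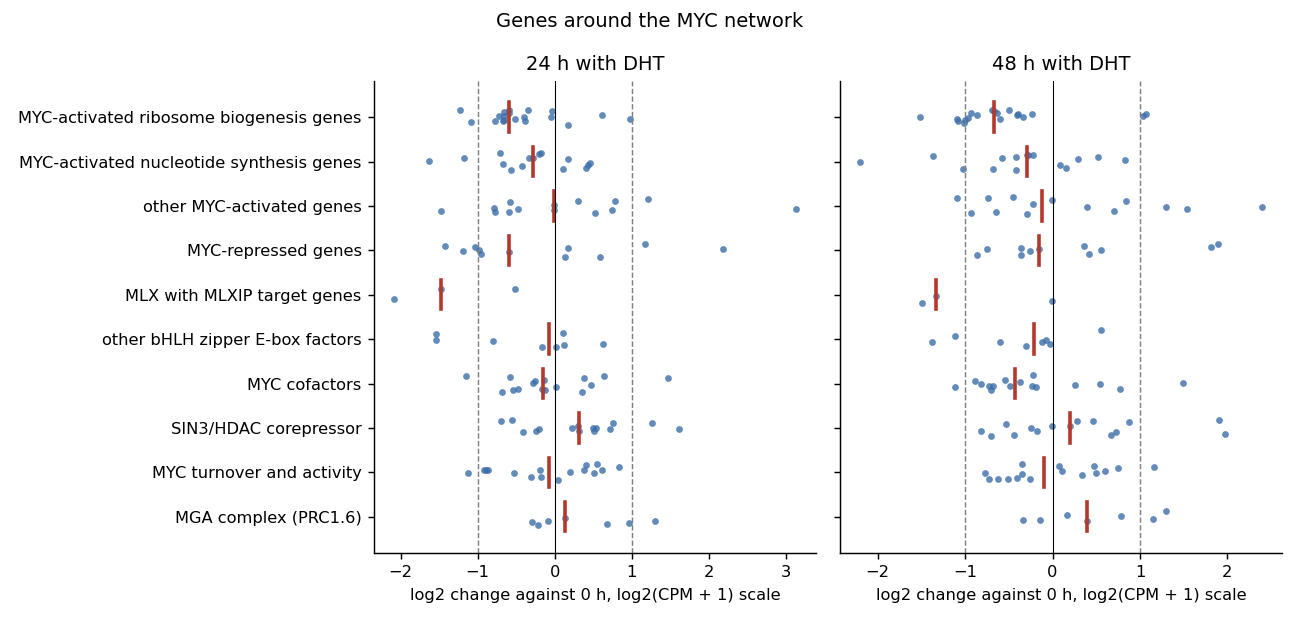
Log2 change at 24 h (left) and 48 h (right) against 0 h for each measured gene (points) of 10 lists around the MYC network, with the list's median as a red bar and dashed lines at 2-fold. Most points lie within 2-fold; at 24 h the medians of the ribosome biogenesis, MYC-repressed and MLX target lists lie at -0.59, -0.60 and -1.48.

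Of 3 measured targets of the MLX and MLXIP pair, TXNIP and KLF10 were lower at 3, 24 and 48 h and 0 were higher. Over all genes 0.864, 10.8 and 7.33% were lower at these times, and with the GC trend removed neither gene was past 2-fold at 3 h. TXNIP, an inhibitor of glucose uptake and the best-known MLXIP target, was at 852 CPM at 0 h and at 403, 334, 316, 201 and 303 CPM with DHT. All 5 DHT libraries were below the untreated one, the 24 h library the lowest, with a ratio of 0.236 (0.227 to 0.244). Its log2 changes of -1.08, -1.35, -1.43, -2.08 and -1.49 were past 2-fold at every time, and with the GC trend removed they were -0.94, -1.84, -1.83, -2.31 and -1.79. ARRDC4, its relative, had -0.74 at 3 h, -0.51 at 24 h and a ratio of 0.998 (0.819 to 1.22) at 48 h. Its 12 h value was -2.90, and it lies on distal chromosome 15, whose genes were low as a whole in that library. The part of that deficit in the value was not tested. KLF10 had -1.02 at 3 h, -1.48 at 24 h and -1.33 at 48 h, and -0.96, -1.47 and -1.32 with the GC trend removed.

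TXNIP was also among the genes whose course was nearest to that of MYC. Nearness was the Euclidean distance between the 5 log2 changes, and its median over the 11915 other genes was 4.12. The 5 nearest were PCTK3 (now CDK18), a cyclin-dependent kinase, at 0.62, the inhibin subunit INHBB at 0.70, the BMP and TGF-beta decoy receptor BAMBI at 0.73, TXNIP at 0.74 and the zinc finger gene GLIS2 at 0.76. PCTK3 went from 36.0 to 5.54 CPM at 24 h and back to 11.2 CPM at 48 h. INHBB was at 1.21 CPM at 24 h, and BAMBI and GLIS2 at 28.7 and 20.01 CPM. When the 12 h library was left out, 3 of the 5 were still among the nearest 5. The points share the 0 h library, so this describes courses only.

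**Figure D5:**
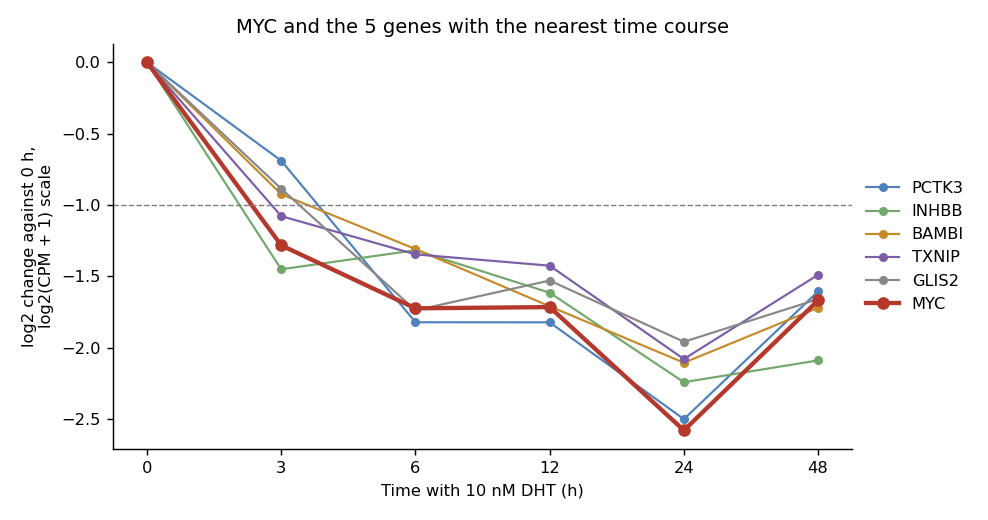
Log2 change against 0 h over time for MYC (thick red line) and the 5 genes with the nearest course, on the log2(CPM + 1) scale with times evenly spaced and a dashed line at 2-fold. All 6 lines reach their lowest point at 24 h, MYC at -2.58 and the others from -1.96 to -2.50.

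Other basic helix-loop-helix zipper factors were counted as well; most bind CACGTG, while TFAP4 prefers another form of the E-box. Of 8 measured, 2 were lower and 0 higher at both 24 and 48 h, beside 10.8 and 7.33% lower over all genes. TFAP4, itself known as a MYC target, had 52.96 CPM in untreated cells and then 36.3, 21.6, 27.1, 17.5 and 19.7 CPM, so the DHT libraries were all below the untreated one and the 24 h library was the lowest. MLXIPL (ChREBP), the relative of MLXIP, had -1.54 and -1.11 at 24 and 48 h from 13.2 CPM. After removal of the GC trend only TFAP4 at 24 h was past 2-fold (-1.11). USF2 had -0.80 at 24 h, a ratio of 0.571 (0.540 to 0.604), and MITF 0.62, a ratio of 1.6004 (1.28 to 2.01), while USF1 had 0.02.

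Of 15 genes of the corepressor recruited by MXD proteins and MNT, 2 were higher and 0 lower at both 24 and 48 h, beside 10.5 and 15% higher over all genes. They were the SIN3-binding proteins ARID4A and ARID4B, with 1.26 and 1.61 at 24 h and 1.90 and 1.97 at 48 h. After removal of the GC trend they had 0.67 and 0.997 at 24 h, short of 2-fold, and 1.06 and 1.09 at 48 h, when SAP30 was higher too with 1.14. SAP30 and ING2 had 0.75 and 0.71 at 24 h. SIN3A was at 148 CPM at 0 h and 173 at 24 h, SIN3B at 152 and 93.6, and HDAC1 at 441 and 299.6. The 12 h values of SIN3A, SAP30 and ING2 were all past 2-fold lower. SIN3A lies on distal chromosome 15 and SAP30 and ING2 on chromosome 4, whose genes were low as a whole in that library. The part of that deficit in these values was not tested.

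Of 16 cofactors of MYC, 1 was higher and 1 lower at both 24 and 48 h, beside 10.5 and 15% higher and 10.8 and 7.33% lower over all genes. At 24 h MYCBP2, a large ubiquitin ligase named for its binding to MYC, had 1.48, and the acetyltransferase GCN5L2 (now KAT2A) had -1.15, which was -0.63 and so short of 2-fold with the GC trend removed. WDR5, MYCBP and TRRAP, the scaffold of acetyltransferase complexes, had -0.68, 0.63 and -0.13. Of 16 genes that act on the turnover or activity of MYC, 0 were higher and 1 lower at 24 h, the mitotic kinase AURKA with -1.12. At 48 h 1 was higher and 0 lower, KIAA1524 (now CIP2A) with 1.16, which was -0.30 with the GC trend removed, and AURKA had -0.35. SKP2 and STUB1 had -0.92 and -0.86, and FBXW7, the ligase that marks MYC for degradation, had 0.50 at 24 h. Its 12 h value was -2.24, and it lies on chromosome 4, whose genes were low as a whole in that library. The part of that deficit in the value was not tested.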

How the data were processed

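RNA was measured in 6 LNCaP libraries, grouped by the labels and tied to columns by the time in the header. Per the file headers the deposited table gives tags, which are whole-number counts per RefSeq transcript, and ppm, the authors' RPM; their ratio is 1 constant per library. Per the submitters' processing notes the build was hg19. The aligner, the counting rule and strand use were not given in the sources used here. Of 18051 lines 50 exact repeats were dropped and counts of 1 symbol added, giving 17990 genes; 11916 had a mean of at least 20 counts. Chromosomes and promoters came from RefSeq tables on GRCh38.p14, lengths and GC content (96.96% of measured genes) from GENCODE transcripts. Distal chromosome 15 runs from LCTL to the end. Intervals are exact Poisson or conditional binomial at 95%; reads carry no molecular identifiers named in the sources, so they cover counting error only. A count of 0 allows up to 3 counts, 0.146 to 0.228 CPM.

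The functions were tested on simulated counts. Alternatives were pseudocounts of 0.5 and 5, TMM, median of ratios, the deposited denominator, removal of the GC trend (lowess, span 0.3), exclusion of both regions, and no filter. Named were all members, the 4 androgen-induced genes, in each list those at least 2-fold from 0 h at both 24 and 48 h or among the 4 most changed at 24 h, and the 5 nearest courses to MYC, MXD1 and MXD3; 1 gene that this rule names is not reported here; other genes stand as members of a count or were picked after their values were seen. The members and lists were chosen with earlier results of these data known. Python 3.11.15, scipy 1.17.1 and statsmodels 0.14.6 were used.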

Additional observations from a re-analysis of the deposited data

How the results depend on the processing

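With 1 library per time no replicate could be left out, and no paired analysis was possible because each group had 1 library. Over the 355 member values under the alternatives, 0 called values changed sign, 5 calls were lost and 1 was gained: MXD1 at 6 h (0.87 with a pseudocount of 5, 0.53 with the GC trend removed) and 48 h (0.92, GC trend removed), MXD3 at 24 h (-0.69 and -0.45), and MXI1 at 24 h, gained at -1.20 with the GC trend removed. The cause was not tested. MYC was past 2-fold lower at every time under all 8 alternatives, from -1.20 at 3 h to -2.59 at 24 h. The number of members past 2-fold was 1 in place of 2 at 6 h with a pseudocount of 5 and with the GC trend removed, and 1 in place of 2 at 48 h with the GC trend removed. It was 2 in place of 3 at 24 h with a pseudocount of 5, and at 12 h without both regions, which hold MXD4.

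Over all genes, a pseudocount of 5 left 57, 1283, 1389, 1538 and 1760 past 2-fold at 3, 6, 12, 24 and 48 h in place of 192, 2185, 2267, 2536 and 2665, and removal of the GC trend left 617, 1311, 1572 and 1387 from 6 h on. The share of higher genes among those past 2-fold was 46.4% at 3 h and 61.9% with TMM, 66.7% with a pseudocount of 5 and 68.6% with the GC trend removed; it was 83.6% at 6 h and 70.7% with the GC trend removed, and 58.01% at 12 h, 35.2% with the GC trend removed and 69.9% without chromosome 4 and distal chromosome 15.

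The share of MYC among MAX partners, with all 5 others and per kb, was 63.5, 37.9, 36.8, 57.6, 29.6 and 43.05% in the order of time. Without MXD4, still per kb, it was 80.3, 70.6, 62.6, 60.0, 48.4 and 59.6%. With all 5 others, but in CPM without length, it was 50.8, 26.6, 25.6, 43.9, 19.2 and 30.5%. The share was not computed with the GC trend removed. Depth limits MXD3 most, with 58 to 100 counts per library.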

Other observations

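The gene nearest in course to MXD1 was INTS10, a subunit of the Integrator complex, at a distance of 0.19. The tropomyosin gene TPM1, CCNYL1 and the trafficking GTPase gene RAB4A followed at 0.28, 0.28 and 0.29. The fifth carried no symbol, and the median over all other genes was 3.08. For MXD3 the nearest was CDKN2A, which encodes the cell cycle inhibitor p16, at 0.17, with -0.11, -0.46, -0.46, -1.10 and -0.38 over time. C11orf35 (now LMNTD2) and SH2D3C followed at 0.21 and 0.22 with 2 transcripts that carry no symbol, and the median over all other genes was 1.64. Without the 12 h library 2 of the 5 nearest to MXD1 (INTS10 and TPM1) and 1 of the 5 nearest to MXD3 (CDKN2A, then the fifth) were still among the nearest 5.

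The complex that MGA joins to silence germline genes had 7 measured members, of which 1 was higher and 0 lower at 24 h and 2 higher and 0 lower at 48 h, beside 10.5 and 15% higher over all genes. RYBP went from 56.8 to 141 and 127 CPM, and CBX3, a heterochromatin protein, from 44.4 to 71.8 and 111 CPM; with the GC trend removed RYBP had 0.79 and 0.44, and CBX3 0.08 and 0.43. RNF2 had 0.97 and TFDP1 -0.30 at 24 h. Of 8 germline genes in the table only STAG3, a cohesin subunit, was measured, at 13.9 CPM at 0 h and 11.4 CPM at 24 h. DAZL had 0 counts in all 6 libraries, which allows up to 0.146 to 0.228 CPM per library.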
